A study of Caenorhabditis elegans with 24 samples.

Results

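The comparison described here is quercetin against untreated in *abl-1* KO animals of *C. elegans*. It rests on 10 of the 24 RNA libraries of the study, 5 of *abl-1* KO animals treated with quercetin and 5 of *abl-1* KO animals left untreated, and covers the 12771 of 20191 genes that had at least 0.5 RPKM (reads scaled to the exon length of a gene and to the mapped reads of a library) in at least 4 of the 24 libraries. The *abl-1* KO strain is NV50, which the labels describe as isolated from a cross of XR1 with GRU102, and the study's strain list gives its allele as *abl-1*(ok171). The wt strain is NV48, with 5 untreated libraries, 5 on quercetin and 4 on 100 µM lutein. The lutein libraries are not compared here, but they count in this filter and in the statistical fit of all 24 libraries. Treated animals received 100 µM quercetin from the egg on, in a lawn of HT115 bacteria carrying the empty vector, and untreated animals received the same bacteria with the solvent, DMSO with Tween 80. All were collected whole on day 3, so a library pools many animals and every tissue, and NV50 is a single strain of *abl-1* KO. The paper calls the libraries of a condition different biological replicas. Its RNA section names the strains NV48 (nAD) and NV51, whereas the sample labels name NV48 and NV50, and the groups used here follow the labels.

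*abl-1* encodes the only Abl-type tyrosine kinase of the worm, which links receptors and adaptors to the actin cytoskeleton and restrains the engulfment of dying cells. Quercetin is a plant flavonol. Flavonols are handled in animals by drug metabolism, in which cytochrome P450 enzymes oxidise a foreign compound, and UDP-glucuronosyltransferases (UGTs) and glutathione S-transferases then join it to a sugar or to glutathione so that it can be exported. The *abl-1* KO libraries with and without quercetin address whether the compound moves transcripts in the *abl-1* KO strain. The kinase protein was not measured in these libraries.

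The targeted gene was read first. *abl-1* (chromosome X, 10605827 to 10624207, WBcel235) had 2.04, 1.85, 2.14, 1.72 and 1.91 RPKM in untreated *abl-1* KO libraries 1 to 5 and 2.02, 2.14, 1.85, 1.79 and 1.71 RPKM in the quercetin libraries. The 10 libraries of wt animals, untreated or on quercetin, held 6.92 to 7.77 RPKM, so every *abl-1* KO library lay below every wt library and their mean was 26.5% of the wt mean. Within *abl-1* KO the quercetin and untreated values overlapped, with means of 1.90 ± 0.175 and 1.93 ± 0.165 RPKM (SD, n = 5 each). The strain carries another difference that both of its groups share. Genes next to each other on chromosome II were far lower than in wt: *npl-4.2* had 5.42 to 8.35 RPKM against 72.6 to 80.3 in wt, *F59E12.15* had 0 to 0.168 RPKM against 19.1 to 21.7, and *F59E12.6* had 0 to 0.0126 RPKM against 14.5 to 17.6. All 10 libraries therefore match their strain label, and any effect of these genes and of *abl-1* in NV50 cannot be told apart.

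The estimated depth of the libraries overlapped between the groups. Mapped reads, estimated from the steps between low values, were 27.4 to 41.5 M in the untreated and 31.7 to 37.8 M in the quercetin libraries of *abl-1* KO. The lowest estimate was that of untreated library 2. Adult hermaphrodite markers were abundant in all 10, with a summed vitellogenin (yolk protein) level of 15308 to 17036 RPKM, and none of the 10 male soma markers reached the level needed for testing. The libraries differed most in sperm transcripts. The summed level of the major sperm proteins was 165, 620, 11.8, 23.6 and 12.6 RPKM in untreated libraries 1 to 5 and 106, 442, 372, 18.1 and 272 RPKM in quercetin libraries 1 to 5. The first principal component of the 10 libraries held 51.5% of their variance and put untreated library 2, quercetin library 2 and quercetin library 3 at one end, with scores of 36.5, 26.8 and 18.4, and untreated libraries 3, 4 and 5 with quercetin library 4 at the other, between -24.8 and -20.5. Quercetin libraries 1 and 5 and untreated library 1 lay between, at 0.73, 0.44 and 7.11. This axis did not separate the treatments, since both ends held libraries of either group, though the low end held mostly untreated ones.

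No gene passed the test. In limma on log2(RPKM + 0.5), with a Benjamini-Hochberg adjustment across all 12771 genes, 0 genes were called at an adjusted p of at most 0.05 (0%), and the smallest adjusted p was 0.9998. At an unadjusted p of at most 0.05, limma gave 117 genes higher (0.916%) and 116 genes lower (0.908%) on quercetin, together 233, where 639 of 12771 would lie below that value if p values were spread evenly. The genes lay close to no difference: the log2 fold changes, which are differences of mean log2(RPKM + 0.5), had a median of -0.0040, quartiles of -0.05 and 0.03, and their outer 2.5% on either side lay beyond -0.22 and 0.32. The median standard error was 0.08. On the scale of log2(RPKM + 0.5), this precision bounds what could have been missed. For weakly expressed genes the added 0.5 shrinks the ratio, so there the interval does not bound the fold change of RPKM itself. The 95% interval of the limma fit lay within 1.5-fold in either direction for 91.5% of genes and within 2-fold for 97.0%. Among the 6533 genes with a mean of at least 10 RPKM the share within 1.5-fold was 98.5%, and among the 1960 genes under 1 RPKM it was 74.7%, so larger differences of weakly expressed genes were not detectable as often. In wt the same limma fit of quercetin against untreated also called no gene, with a smallest adjusted p of 0.9998. The absence of calls was thus not particular to *abl-1* KO. The paper's CLC test, which was not repeated here, did report genes modulated by quercetin in wt.

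**Figure D1:**
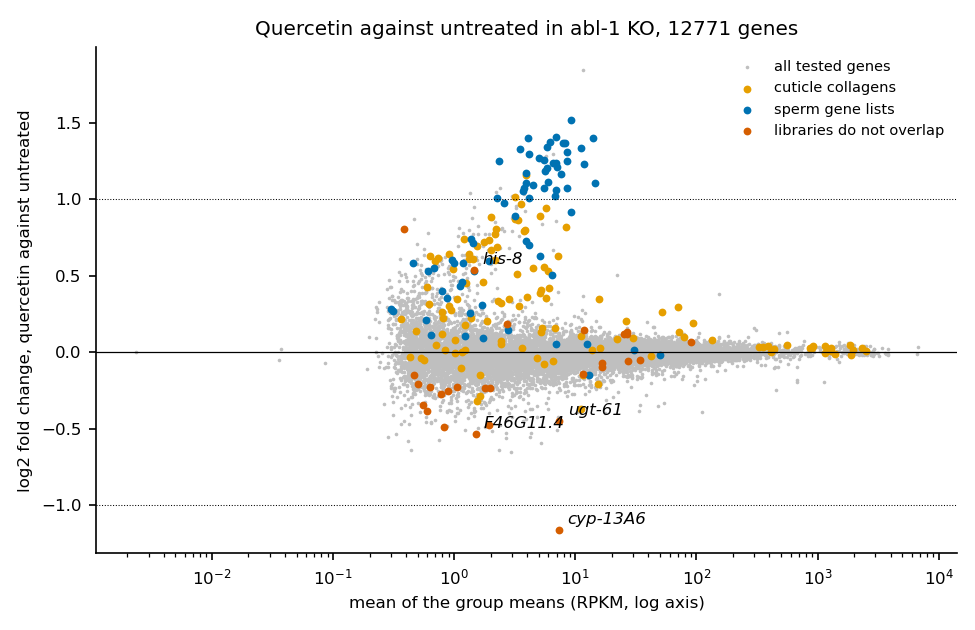
Log2 fold change of quercetin against untreated in *abl-1* KO (vertical axis, log2(RPKM + 0.5) scale) against the mean level in RPKM (horizontal log axis) for the 12771 tested genes, with dotted lines at 2-fold. The genes past 2-fold are 48 higher, mostly of the sperm lists, and 1 lower, *cyp-13A6*, and the 28 genes whose libraries do not overlap are mostly close to 0.

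The genes described next are those whose 5 quercetin libraries all lay on one side of all 5 untreated libraries. Among the 12771 genes 8 were higher without overlap (0.0626%) and 20 were lower without overlap (0.157%), and 7 and 12 of these had a mean of at least 1 RPKM over the 10 libraries. The two-sided exact permutation test gives each such gene p = 0.00794, the smallest value that 5 against 5 libraries allow, before any correction for the number of genes, and none of them passed the adjusted threshold in limma. The genes were chosen for this separation, so that p only restates the choice. If the treatment labels were arbitrary, that p across 12771 genes would on average give more such genes than were seen.

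*cyp-13A6* had the largest fold change of the genes without overlap. It encodes a cytochrome P450 enzyme and lies on chromosome II, 9800758 to 9802821. Its level was 8.95, 7.27, 7.54, 11.6 and 16.2 RPKM in untreated libraries 1 to 5 and 2.57, 2.97, 5.26, 6.48 and 4.42 RPKM in quercetin libraries 1 to 5. The highest quercetin library thus stayed below the lowest untreated library. The means were 10.3 ± 3.70 and 4.34 ± 1.62 RPKM (SD, n = 5 in either group), and the log2 fold change was -1.16 (SE 0.33), 55.4% lower on that scale, with a 95% interval of 0.279-fold to 0.715-fold and an unadjusted limma p of 0.00178. It was the only gene at least 2-fold lower among the 12771 tested. The neighbouring paralogs did not share the separation. *cyp-13A5* had 3.62 ± 1.51 RPKM untreated and 3.41 ± 1.21 RPKM on quercetin, a log2 fold change of -0.04 with an interval from 0.606-fold to 1.55-fold, and *cyp-13A4* had 0.706 ± 0.3 and 0.660 ± 0.301 RPKM. How reads shared between such paralogs were assigned is not given in the sources used here, so the split among them is uncertain.

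*ugt-61*, a UGT gene on chromosome V (4742422 to 4745373), was the other drug metabolism gene without overlap. The untreated libraries held 8.47, 8.38, 6.88, 9.73 and 9.71 RPKM and the quercetin libraries 6.12, 6.03, 6.22, 6.81 and 5.62 RPKM. The margin was narrow, since untreated library 3 lay just above quercetin library 4. The means were 8.63 ± 1.18 and 6.16 ± 0.431 RPKM (SD, n = 5 in either group), and the log2 fold change was -0.45 (SE 0.12) with an unadjusted limma p of 0.00157.

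The same separation of both genes was present in wt. In wt libraries 1 to 5 *cyp-13A6* had 8.29, 9.76, 4.55, 19.7 and 7.20 RPKM untreated and 2.01, 2.98, 3.19, 3.52 and 2.98 RPKM on quercetin, a log2 fold change of -1.46. For *ugt-61* the wt values were 7.24, 8.96, 7.03, 11.1 and 6.76 RPKM untreated and 5.41, 6.33, 4.92, 5.98 and 5.66 RPKM on quercetin, a log2 fold change of -0.48. The limma test of the difference between the strains gave 0.30 (SE 0.46, unadjusted p = 0.529) for *cyp-13A6* and 0.04 (SE 0.18, unadjusted p = 0.842) for *ugt-61*. In wt 26 genes were higher without overlap (0.204%) and 16 were lower without overlap (0.125%), and these 2 were the only genes that did not overlap in both strains. The wt and *abl-1* KO comparisons share no library.

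**Figure D2:**
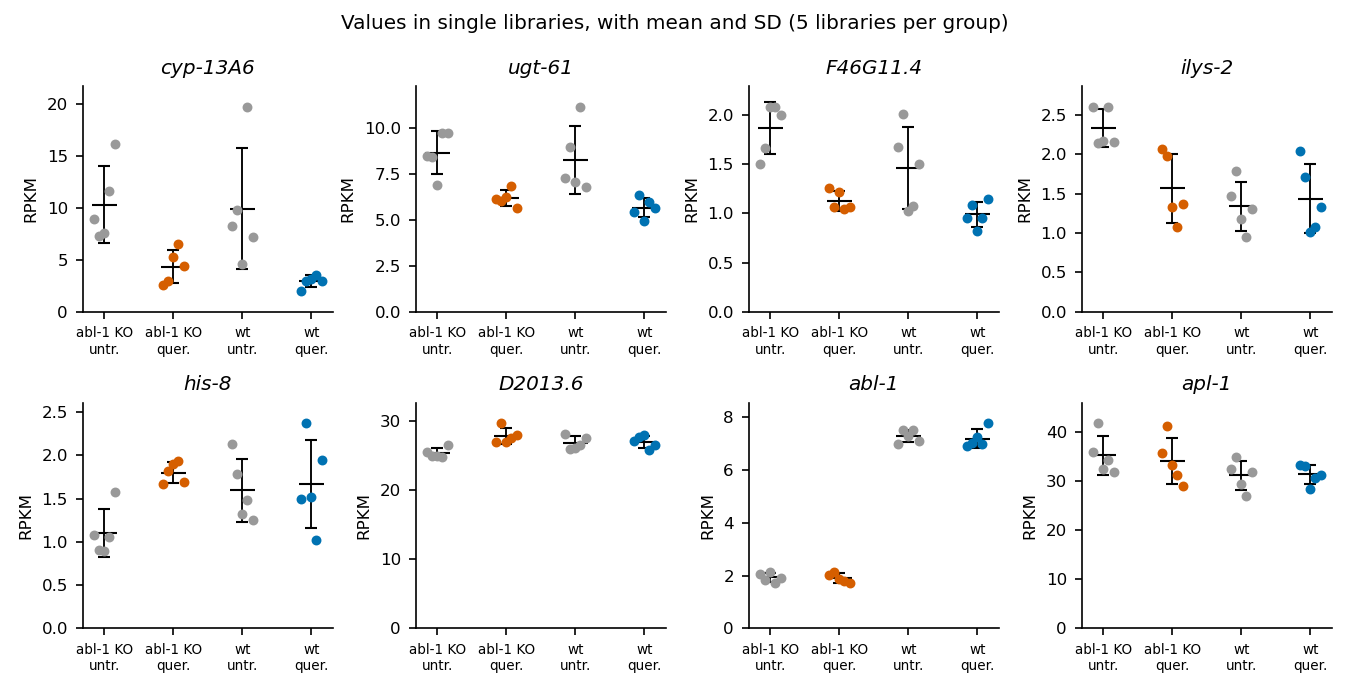
Levels of 8 genes in RPKM (vertical axes from 0) in single libraries of untreated and quercetin-treated *abl-1* KO and wt animals, with the mean and SD of 5 libraries per group. *cyp-13A6* and *ugt-61* separate by treatment in both strains, *abl-1* separates the strains and not the treatments, and *apl-1* overlaps between the *abl-1* KO groups.

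*F46G11.4* (chromosome X) had the smallest limma p of the genes without overlap. It had 1.5, 1.67, 2.09, 2.08 and 2.00 RPKM in the untreated and 1.26, 1.07, 1.22, 1.04 and 1.06 RPKM in the quercetin libraries, a log2 fold change of -0.53 (SE 0.14, unadjusted p = 0.000746). In wt its log2 fold change was -0.37 and the libraries overlapped. *ilys-2*, which encodes an invertebrate-type lysozyme, had 2.60, 2.14, 2.16, 2.60 and 2.16 RPKM untreated and 2.07, 1.98, 1.33, 1.07 and 1.37 RPKM on quercetin, a log2 fold change of -0.48 (SE 0.17). The quercetin libraries 1 and 2 nearly reached the untreated ones, and wt gave 0.06. *dmsr-4*, a gene for a myosuppressin-type neuropeptide receptor, had 1.88 to 2.17 RPKM untreated and 1.55 to 1.69 RPKM on quercetin, a log2 fold change of -0.24 (SE 0.08).

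The other lower genes of this kind had smaller differences or narrower gaps. *fbxa-150*, an F-box gene, had 1.86 to 2.40 RPKM untreated and 1.66 to 1.86 RPKM on quercetin. For *flr-4*, which encodes a protein kinase of the intestine, the ranges were 1.06 to 1.29 and 0.719 to 1.05 RPKM. *fpn-1.1*, a homologue of the iron exporter ferroportin, had means of 12.1 ± 0.413 and 10.9 ± 0.433 RPKM, *R02F2.7* had 16.9 to 17.8 and 15.7 to 16.6 RPKM, and *gly-5*, which encodes an enzyme that starts mucin-type sugar chains, had 34.2 to 35.4 and 32.9 to 34.1 RPKM. Their log2 fold changes in that order were -0.23, -0.23, -0.14, -0.10 and -0.05, so the absence of overlap came with small differences.

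Of the higher genes without overlap, *his-8*, a histone H2B gene, had the largest difference at a mean of at least 1 RPKM. It had 1.08, 0.900, 0.896, 1.06 and 1.58 RPKM untreated and 1.67, 1.81, 1.90, 1.93 and 1.69 RPKM on quercetin, a log2 fold change of 0.54 (SE 0.15). Untreated library 5 stood apart from the other untreated libraries and came close to the quercetin ones. Histone genes have near-identical copies and their transcripts mostly lack the poly(A) tail used for capture, so this value is uncertain, and wt gave 0.03. The other higher genes differed by small amounts. *D2013.6* had 24.9 to 26.6 RPKM untreated and 26.9 to 29.8 RPKM on quercetin, with a log2 fold change of 0.13 (SE 0.04). *tdp-1*, the worm homologue of the RNA-binding protein TDP-43, had 86.6 to 90.8 and 91.0 to 94.1 RPKM, with a log2 fold change of 0.07 (SE 0.02). *Y47D3A.14*, *C25G4.3*, *Y60A3A.21* and *Y105E8A.1* had log2 fold changes of 0.12, 0.12, 0.15 and 0.18. Outside the rule for named genes, *acdh-13* and *T16G1.9* were lower without overlap by small steps, with log2 fold changes of -0.06 and -0.07, and the other 9 genes without overlap had means under 1 RPKM. Among those, *K09H11.11* had 0 to 0.319 RPKM untreated and 0.410 to 0.800 RPKM on quercetin, *K11D12.8* had 0.903 to 1.13 and 0.330 to 0.792 RPKM, and *dma-1*, which encodes a receptor that shapes sensory dendrites, had 0.557 to 0.723 and 0.379 to 0.495 RPKM. In wt *Y47D3A.14*, *C25G4.3* and *Y60A3A.21* had the opposite sign, at -0.01, -0.03 and -0.07, and 19 of the 28 genes without overlap had the same sign in both strains, against 49.4% of all tested genes.

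The families of drug metabolism were then read whole, from lists of gene names. Of 50 tested UGTs 11 were above and 39 below the untreated mean, with a median log2 fold change of -0.12, where 47.1% of all tested genes were above and the median was -0.0040. None was called. At an unadjusted p of at most 0.05, 3 of the 50 UGTs were lower and 0 higher, against 0.908% and 0.916% of all tested genes: *ugt-61*, *ugt-9* with 3.88 ± 0.748 RPKM untreated and 3.12 ± 0.356 RPKM on quercetin, and *ugt-62* with 37.1 ± 3.66 and 33 ± 3.13 RPKM, and the libraries of the last 2 overlapped. The summed UGT level was 508, 492, 381, 415 and 369 RPKM in untreated libraries 1 to 5 and 428, 458, 363, 400 and 342 RPKM in quercetin libraries 1 to 5. The groups overlapped, and libraries 1 and 2 were the highest of either group. Without untreated library 2 the median was -0.03. In wt 29 of the 50 were above, with a median of 0.01.

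Of 52 tested cytochrome P450 genes 12 were above and 40 below, with a median of -0.05 on the log2 scale and a range from -1.16 for *cyp-13A6* to 0.26. *cyp-13A6* was the only member with an unadjusted limma p of at most 0.05, and 48 of the 52 had a 95% interval within 1.5-fold. Glutathione S-transferases gave 11 of 38 above with a median of -0.05. Among them *gst-22* had 3.27 to 4.79 RPKM on quercetin and 3.83 to 9.23 RPKM untreated, the highest being untreated library 2. Short-chain dehydrogenases gave 9 of 30 above and a median of -0.02, and ABC drug transporters, which export conjugates, gave 11 of 34 above and a median of -0.02. In all, the members of these 5 families called in either direction were 0, and of the antioxidant enzymes, such as superoxide dismutases, catalases and the glutathione and thioredoxin enzymes, 13 of 27 were above with a median of -0.00049, and none had an unadjusted p of at most 0.05. Having most members below was not particular to drug metabolism. Of the marker lists, 2 of 14 intestine, 3 of 20 neuron and 5 of 20 muscle genes were above, with medians of -0.04, -0.05 and -0.03. The oocyte and eggshell list went the other way, with 24 of 31 above.

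**Figure D3:**
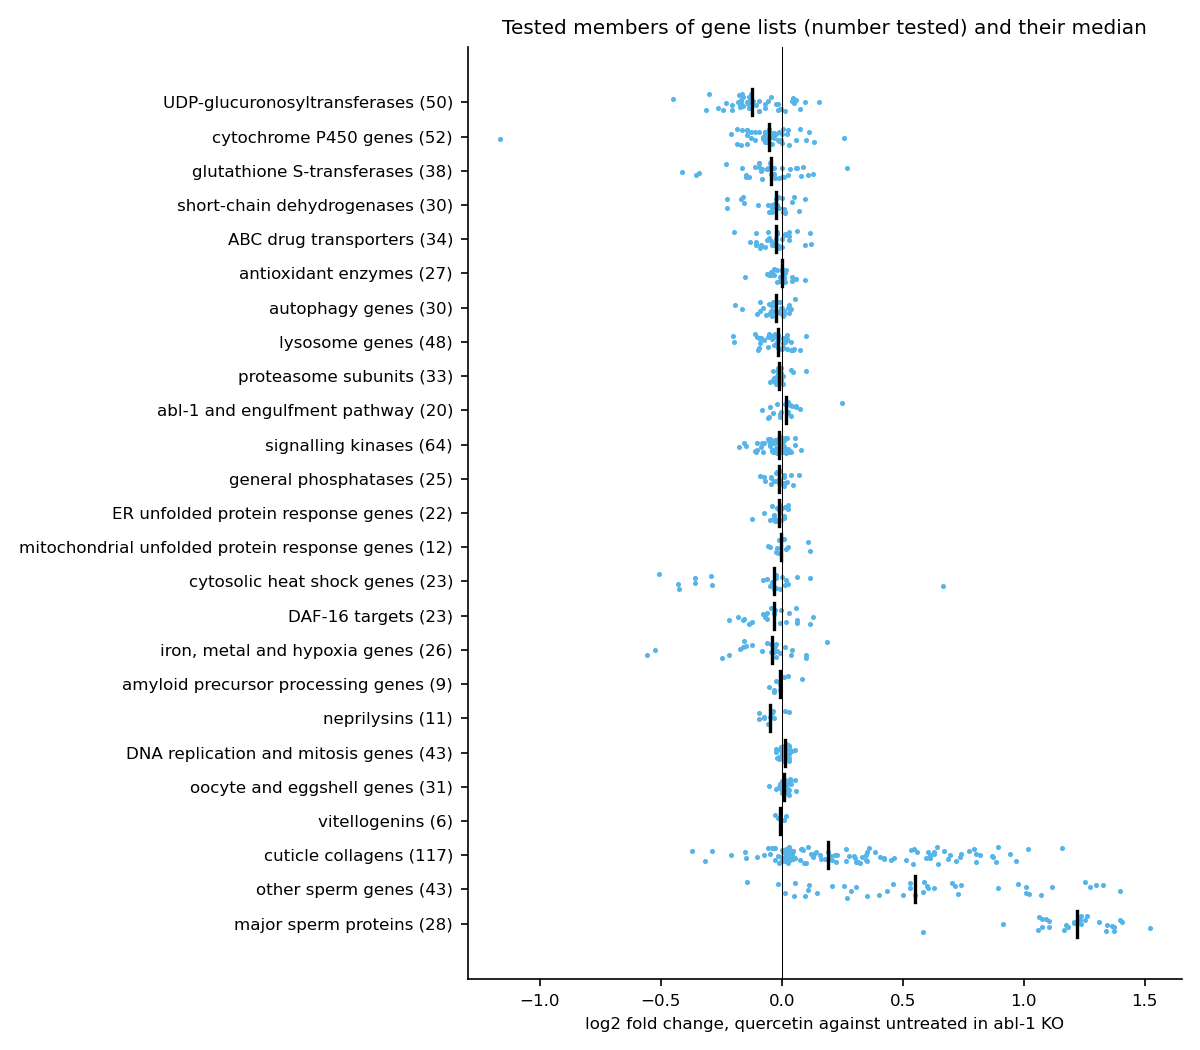
Log2 fold change of quercetin against untreated in *abl-1* KO (horizontal axis) for the tested members of 25 gene lists, 1 point per gene, with the median of each list as a black line and the number tested in brackets. Most medians lie near 0, those of the UGTs lie at -0.12, and the sperm and collagen lists spread to the right.

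Autophagy degrades cell contents in vesicles that fuse with lysosomes, and is one of the processes the study followed in its other experiments. Of 30 tested autophagy genes 9 were above and 21 below, the median log2 fold change was -0.02, and the 95% interval of all 30 lay within 1.5-fold. *bec-1*, the Beclin homologue that starts autophagosome formation, had 31.5 ± 1.90 RPKM untreated and 30.3 ± 1.21 RPKM on quercetin (SD, n = 5 each). *lgg-1*, which encodes the LC3-type protein of the autophagosome membrane, had 345 to 440 RPKM untreated and 342 to 431 RPKM on quercetin. *hlh-30*, the worm TFEB that drives autophagy and lysosome genes, had 14.4 ± 1.08 and 14.3 ± 1.09 RPKM. The libraries of these 3 genes overlapped, with log2 fold changes of -0.05, -0.02 and -0.0050 and two-sided exact permutation p values of 0.317, 0.786 and 0.937. *epg-7*, a scaffold of selective autophagy, was the only member with an unadjusted limma p of at most 0.05, with 12.1 to 13.2 RPKM untreated and 11.3 to 12.3 RPKM on quercetin. *epg-5*, needed for autophagosomes to become degradative, had 5.08 ± 0.390 and 4.48 ± 0.357 RPKM. Of 48 tested lysosome genes 20 were above, and of 33 proteasome subunits 5 were above, with medians of -0.02 and -0.01.

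Genes around *abl-1* itself were read next. Of the 20 genes of the *abl-1* and engulfment list 11 were above and 9 below, with a median of 0.02, on the log2 scale and 19 had a 95% interval within 1.5-fold. The one with an unadjusted limma p of at most 0.05 was *ced-9*, the worm BCL-2 homologue that keeps cells alive, with 58 to 63.8 RPKM untreated and 62.7 to 65.6 RPKM on quercetin, which overlapped. Of 64 signalling kinase genes 24 were above and 40 below, the median was -0.01, and all 64 intervals lay within 1.5-fold. *nsy-1*, an upstream kinase of the p38 pathway, had 9.38 ± 0.690 RPKM untreated and 8.67 ± 0.703 RPKM on quercetin. Of 25 general phosphatases 9 were above with all intervals within 1.5-fold, and *pph-4.2*, a protein phosphatase 4 catalytic subunit, had 73.8 to 76.4 and 74.9 to 84.4 RPKM.

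The worm genes for amyloid precursor biology were read because the study works on models of Alzheimer's disease. *apl-1*, the homologue of the amyloid precursor protein, had 36, 41.9, 32.6, 34.3 and 31.9 RPKM untreated and 35.9, 41.3, 33.3, 31.3 and 29.0 RPKM on quercetin, with library 2 the highest in both groups. Its log2 fold change was -0.05 (SE 0.08, two-sided exact permutation p = 0.643). *feh-1*, an adaptor that binds the tail of APL-1, had 1.01 ± 0.0819 and 0.998 ± 0.122 RPKM. *nep-1*, which encodes a neprilysin, a membrane protease that cleaves small peptides, had 13.9 ± 0.462 and 14.2 ± 0.565 RPKM. Of the 9 amyloid precursor processing genes 3 were above, and of 11 tested neprilysins 2 were above, with medians of -0.01 and -0.05.

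Stress response genes gave no called member either. The genes that answer misfolded protein in the endoplasmic reticulum had 6 of 22 above, a median of -0.01 on the log2 scale and a range of -0.12 to 0.03, and all 22 intervals lay within 1.5-fold. The mitochondrial response had 6 of 12 above, and *haf-1*, a mitochondrial peptide exporter of that response, had 4.16 ± 0.230 RPKM untreated and 4.56 ± 0.328 RPKM on quercetin. Cytosolic heat shock genes had 7 of 23 above and a wider range, from -0.51 to 0.67. *hsp-16.11*, a small heat shock protein gene with close copies, had 15.4 to 32 RPKM untreated and 12.1 to 24.1 RPKM on quercetin. DAF-16 targets, which report insulin-type signalling, had 7 of 23 above with a median of -0.03.

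In the iron, metal and hypoxia list 6 of 26 tested genes were above, with a median log2 fold change of -0.04. *cdr-1*, a cadmium-inducible gene of the intestine, had 3.10, 2.39, 3.77, 3.53 and 3.45 RPKM untreated and 2.00, 1.40, 2.78, 2.66 and 1.83 RPKM on quercetin. Its groups overlapped only through untreated library 2, and the log2 fold change was -0.53 (SE 0.21, two-sided exact permutation p = 0.0238). *vhl-1*, which encodes the factor that marks HIF-1 for degradation, had 8.63 ± 0.998 and 9.86 ± 0.440 RPKM. Among genes of defence, 42 of 86 C-type lectins, 32 of 64 antimicrobial peptide and lysozyme genes and 6 of 17 immune response genes were above, with medians of -0.01, 0.01 and -0.02. Of the C-type lectins, 4 were lower and 1 higher at an unadjusted limma p of at most 0.05. Of 58 fat breakdown genes 27 were above, and *maoc-1*, an enzyme of peroxisomal fatty acid oxidation, had 37.6 ± 3.15 RPKM untreated and 34.0 ± 3.40 RPKM on quercetin. The F-box genes, a large and variable family of substrate receptors for ubiquitination, held 7 of 204 tested members lower at an unadjusted p of at most 0.05 and 0 higher, against 0.908% and 0.916% of all tested genes, with a median of -0.02.

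Sperm genes and cuticle collagens had large mean differences for whole lists, and no tested member of them was without overlap. All 28 tested major sperm proteins, which build the sperm cytoskeleton, were above, with a median of 1.22, on the log2 scale and 0 of them had an unadjusted limma p of at most 0.05, with a median standard error of 0.92. For *msp-113*, which had the largest difference of the list, the values were 9.13, 24.5, 0.758, 0.481 and 0.367 RPKM untreated and 5.41, 21.1, 16.5, 1.32 and 12.1 RPKM on quercetin. The highest value was in untreated library 2 and 3 of the 5 untreated libraries were below 1 RPKM. *nspd-10*, a sperm-enriched gene, had 1.82, 5.63, 0, 0 and 0.359 RPKM untreated and 1.97, 4.81, 4.05, 0.271 and 4.57 RPKM on quercetin, and library 2 was again the highest of either group. Of the other sperm genes 41 of 43 were above, with a median of 0.55. Without untreated library 2 the medians of these lists were 1.98 and 1.03. In bulk libraries of whole animals, fewer cells of a type and less RNA per cell cannot be told apart.

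Of 117 tested cuticle collagens 99 were above and 18 below, with a median of 0.19 on the log2 scale and a range of -0.37 to 1.16, and none had an unadjusted limma p of at most 0.05. Their summed level was 21984 to 29910 RPKM untreated and 21951 to 28738 RPKM on quercetin. The median was 0.36 without untreated library 2, and -0.0069 in the cuticle collagens with the summed major sperm protein level as a covariate. Of the 48 genes at least 2-fold higher among the 12771 tested, 26 were major sperm proteins, 10 other sperm genes, 2 collagens and 10 in none of these lists, 44 of them had their highest value in untreated library 2, and 0 were without overlap. In wt, where the comparison has libraries of its own, all 28 major sperm proteins and 94 of the 117 collagens were above, with medians of 0.86 and 0.39, and the major sperm protein sums again overlapped, at 4.54 to 112.8 RPKM untreated and 8.01 to 337 RPKM on quercetin. By contrast 24 of 31 oocyte and eggshell genes were above with a median of only 0.01, 30 of 43 DNA replication and mitosis genes were above with a median of 0.01, and 2 of 6 vitellogenins were above with a median of -0.01.

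**Figure D4:**
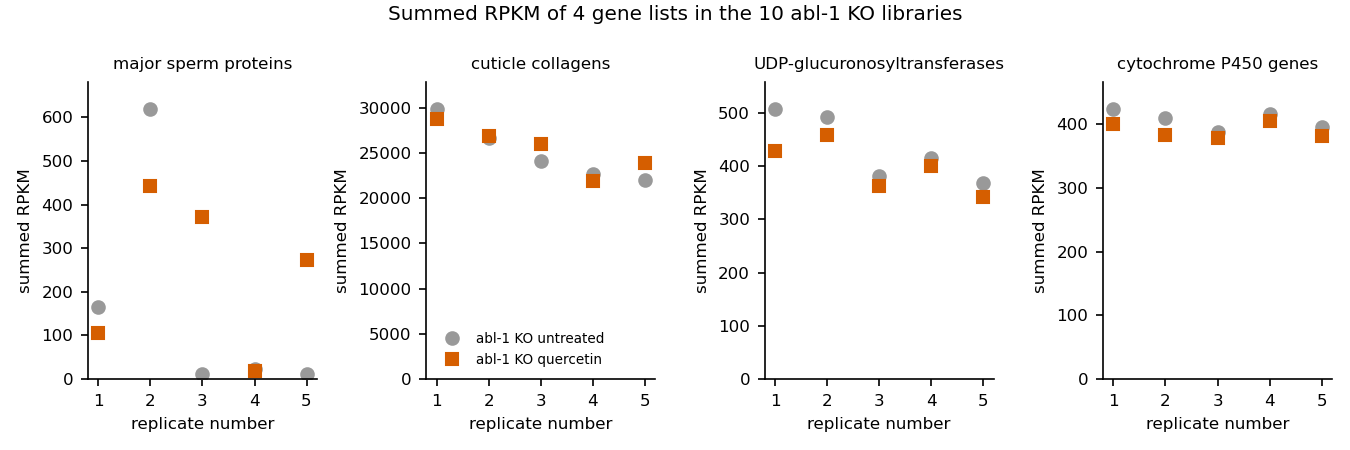
Summed RPKM of 4 gene lists (vertical axes from 0) in the 5 untreated and 5 quercetin libraries of *abl-1* KO, by replicate number. The major sperm proteins run from 11.8 to 620 RPKM untreated and from 18.1 to 442 RPKM on quercetin, and the UGTs are highest in libraries 1 and 2 of both groups.

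The study names 171 genes as common to quercetin-treated wt and untreated *abl-1* KO, each against untreated wt, and 24 of them were grouped here as kinase and phosphatase genes. The untreated *abl-1* KO libraries took part in that choice, so these lists are not independent evidence of a direction here. Of the 171 genes 106 were tested, 89 were above and 17 below on quercetin in *abl-1* KO, with a median of 0.41, on the log2 scale and 0 were called. Their summed level was 810 to 1481 RPKM untreated and 826 to 1253 RPKM on quercetin, highest in untreated library 2. Of the kinase and phosphatase genes 7 were tested and all 7 were above, with a median of 0.41 and a summed level of 0.816 to 26.4 RPKM untreated and 1.20 to 16.9 RPKM on quercetin.

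Whether the response to quercetin differed between the strains was tested directly. In limma 0 of 12771 genes were called for the difference between *abl-1* KO and wt (0%), the smallest adjusted p was 0.99995, and the unadjusted p was at most 0.05 for 203 genes, 97 with the larger log2 fold change in *abl-1* KO and 106 with the smaller. Across all genes, which are not independent of each other, the log2 fold changes of both strains had a Pearson correlation of 0.47 and a Spearman correlation of 0.03.

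**Figure D5:**
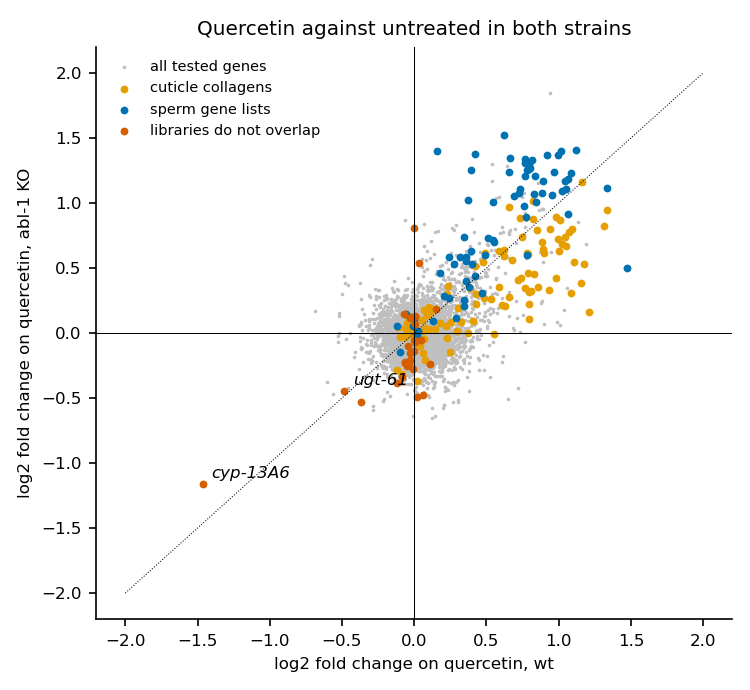
Log2 fold change of quercetin against untreated in *abl-1* KO (vertical axis) and in wt (horizontal axis) for 12771 genes, with a dotted line of equality. *cyp-13A6* at -1.16 and -1.46 and *ugt-61* at -0.45 and -0.48 lie near the line, the sperm genes and collagens form the arm to the upper right, and *F46G11.4* lies at -0.53 and -0.37.

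Of the genes with the smallest p of the difference, none past the adjusted threshold in limma, the 4 described here had opposite signs in the strains. *oig-4*, which encodes a muscle protein that stabilises acetylcholine receptor clusters, had 2.97, 3.58, 3.78, 3.38 and 3.75 RPKM untreated and 4.18, 4.08, 3.87, 3.62 and 4.94 RPKM on quercetin in *abl-1* KO, and 3.47 to 4.49 RPKM untreated and 2.99 to 3.67 RPKM on quercetin in wt. The log2 fold changes were 0.22 and -0.24, and their difference was 0.45 (SE 0.13). *dhs-18*, a short-chain dehydrogenase gene, had log2 fold changes of -0.17 in *abl-1* KO and 0.17 in wt, a difference of -0.34 (SE 0.11). *rgs-10*, a regulator of G protein signalling, had -0.21 and 0.21, and *his-7*, a histone H2A gene with near-identical copies, had 0.38 and -0.48. The groups of all 4 genes overlapped in *abl-1* KO. The next genes by the same rule were *Y48G9A.7* and *Y94H6A.12* with differences of 0.92 and 0.31, and *dmsr-4*, *F58F9.3* and *nhr-110*, the last a nuclear hormone receptor gene, with differences of -0.34, -0.40 and -0.45.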

How the data were processed

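RNA was measured in 24 libraries of whole *C. elegans* in 5 groups, taken from the sample labels, and 10 libraries form the comparison. The 5 groups are *abl-1* KO and wt, each untreated and on quercetin, and 4 libraries of wt on lutein. The authors made stranded mRNA libraries, demultiplexed them with bcl2fastq (2.20.0.422, per the submitters' processing notes), ran trimming and mapping against WBcel235 with CLC Genomics Workbench, and deposited 1 RPKM value per gene and library for 20191 genes. The treatment of multi-mapped reads, the strand setting and the read totals were not given in the sources used here. RPKM is relative, so a large transcript class in 1 library lowers the other values. The values sum to 714478 to 739588 per library, and 15.1% to 20.3% of the genes of a library are at 0. The spacing of the lowest values, multiplied by exon length, gave a depth of 27.3 to 45.2 M mapped reads per library, at which 47.4% to 57.7% of the low values lay within 0.1 of whole reads, against 20% for even spacing. Positions came from the Ensembl annotation (release 115) of the same assembly, which matched 18971 names and left 1220 unmatched.

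Log2(RPKM + 0.5) of the 12771 genes with at least 0.5 RPKM in at least 4 libraries was fitted with limma (3.58.1, R 4.3.3, variance trend, no covariate) as 5 groups, with two-sided tests and the Benjamini-Hochberg adjustment across all tested genes. RPKM values are not counts, so models of counts were not used, and the CLC test of the paper was not repeated. Single genes were also compared by exact permutation tests. The 48 gene lists are described by counts and medians, with no test. The comparison, the lists and the genes named were chosen with earlier results of these data known. Named genes are up to 10 per direction among those past the threshold, filled with the smallest unadjusted p among genes without overlap and with a mean of at least 1 RPKM, up to 4 members per list with the smallest p, *abl-1*, *bec-1*, *lgg-1*, *hlh-30*, *apl-1*, *feh-1*, *nep-1*, the strain marks, and the 5 genes per direction with the smallest p of the strain difference. *cyp-13A4*, *cyp-13A5* and genes without overlap outside that rule were added after their values were seen. Alternatives changed the filter, pseudocount, scaling, samples, variance model, weights, a sperm covariate, the replicate number and the threshold. Quercetin against untreated in wt was fitted for the comparison of strains, and the other comparisons of the series were not analysed here.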

Additional observations from a re-analysis of the deposited data

Results flagged for a closer look

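Most of the genes named, and the summed levels of the sperm, collagen, UGT and cytochrome P450 lists, were checked in the groups of 5 *abl-1* KO libraries. Of these 106 group values, 12 had 1 library farther from the rest than the 95% limit for the gap over the range (0.71), where chance gives about 1 in 20. Untreated library 2 held a summed major sperm protein level of 620 RPKM, against 11.8 to 165 in the other untreated libraries, and a summed level of the other sperm genes of 381 RPKM, against 127 to 191. Quercetin library 2 was low for *nep-1* (13.2 RPKM, against 14.3 to 14.5 in the others) and for *his-7* (0.814 RPKM, against 1.39 to 1.6). Quercetin library 1 was high for *maoc-1*, at 39.9 RPKM against 31.3 to 33.5. Untreated library 4 was high for *gly-5* (35.4 RPKM, against 34.2 to 34.5) and *haf-1* (4.56 RPKM, against 3.99 to 4.13) and low for *Y47D3A.14* (23.0 RPKM, against 25.6 to 26.3). Untreated library 5 was high for *his-8*, at 1.58 RPKM against 0.896 to 1.08. The remaining flags were single values just above 0 in genes at 0 elsewhere: *F59E12.6* at 0.0126 RPKM in quercetin library 3 and 0.0107 RPKM in untreated library 5, and *F59E12.15* at 0.168 RPKM in untreated library 2.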

How the results depend on the processing

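The count of called genes was 0 for quercetin against untreated in *abl-1* KO and 0 for the difference between the strains in limma under every alternative that kept an adjusted threshold. It was also 0 for both when each untreated or quercetin library was left out in turn. The lutein libraries were not left out one by one. At an unadjusted p of at most 0.05 the counts were 233 and 203. For the first of these, leaving out 1 *abl-1* KO library gave 164 to 454, the highest without untreated library 2, and the sperm covariate gave 483, array weights 409, no filter 564 of 19305 genes and a mean of at least 2 RPKM 149 of 9419. The fit with the replicate block called 0 genes (smallest adjusted p = 0.674, 489 at an unadjusted p of at most 0.05). Same-numbered libraries deviated together unevenly, with correlations of 0.29, 0.65, -0.25, 0.60 and 0.24 for numbers 1 to 5. Of 10 libraries 5 were closest to their own number, more than random matches would give on average. The main fit did not take the numbers as pairs, and an effect shared by libraries of the same number is not excluded. The summed levels of UGTs and of cytochrome P450 genes were lower on quercetin in 5 of 5 same-numbered libraries, as were those of 4 of the 48 lists in all, these 2 included, and the smallest exact p of such a pairing is 0.0625. 2 alternatives were chosen after seeing the data: without both *abl-1* KO libraries numbered 2 the smallest adjusted p was 0.292, and with numbers 1 and 2 against 3 to 5 as a term the count at an unadjusted p of at most 0.05 was 373. The 17 genes without overlap that the naming rule chose kept their sign wherever they were tested. Because they were chosen for that separation, leaving out libraries or changing the filter, pseudocount or weights could not have changed the sign. With the sperm covariate the median log2 fold change of the major sperm proteins was 0.04, of the collagens -0.0069 and of the 171 genes -0.05. The covariate is the summed level of these same major sperm proteins, so the value near 0 for them was built in. Some of them are also among the 171 genes. The UGT median stayed between -0.19 and -0.03. Most list medians were less stable. Of 47 lists with tested members, 35 changed the sign of their median under at least 1 alternative. The largest of these medians in the main fit was 0.41 in size. Of the 211 genes chosen by the naming rule, 26 changed sign under at least 1 alternative. Under the other scalings 50.4% to 51.1% of genes were above, against 47.1%. RPKM alone gives no counting error.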
